A study of Homo sapiens with 18 samples.

Results

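The change in gene expression between 1 and 5 μM cocaine, 6 h after the exposure, was measured in SH-SY5Y cells, a human neuroblastoma line that can be differentiated to neuron-like cells with retinoic acid. The comparison takes 6 of the 18 arrays of the study, 3 of each dose, and sets the arrays with the same replicate number against each other. Cells of both doses had been kept in 10 μM retinoic acid for 7 days and then without it for 24 h, were exposed to cocaine for 30 min, and were harvested 6 h later. Each condition had 9 dishes, and each array received the pooled RNA of 3 of them, so that a replicate is a pool of dishes and not a single culture. The doses are those of the sample titles, since other labels of the arrays given 5 μM contain wording meant for untreated cells. No untreated array enters the test.

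The arrays carry probe sets, groups of short probes that each report a stretch of 1 or more transcripts, and many genes have several. A probe set was kept where its mean over the 9 arrays of 6 h was above log2(40), which left 24930 of 54675 probe sets. The dimmest one kept had a mean of 5.32214 and the brightest one left out a mean of 5.32185. Of those kept, 21434 had 1 gene symbol, for 11943 genes, 1021 had several and 2475 were unnamed here. All levels below are log2 signals and all changes are differences of log2 signals, 5 minus 1 μM, so that a change of 1 is a doubling. Levels of different probe sets do not compare the amounts of different transcripts, because each probe set has its own sensitivity.

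Cocaine blocks the reuptake transporters of dopamine, noradrenaline and serotonin and, at higher concentrations, voltage-gated sodium channels. In neurons that receive more dopamine, cAMP and calcium signalling reach the transcription factor CREB and the immediate early genes, whose transcripts rise and decay within hours. A step in dose within treated cells asks which transcripts differ between 2 exposed groups that differ in concentration.

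The cells carried the markers of the noradrenergic line they come from. GATA3 measured 12.9 to 13.0 over the 6 arrays, PHOX2A 11.0 to 11.3 and DBH, which makes noradrenaline from dopamine, 9.05 to 9.49. TH, the enzyme that makes L-DOPA, was below the signal filter in all 9 arrays of 6 h, at 3.35 to 3.61. Of 8 genes of adrenergic identity 6 were found on the array by symbol and 5 of them passed the filter. Genes of the mesenchymal neuroblastoma state were also present, with VIM at 12.3 to 12.5 and FN1 at 10.8 to 11.1, and 4 of 5 fibroblast genes passed the filter. The mean of the fibroblast genes was 7.79 to 8.09 at 1 μM and 7.76 to 8.10 at 5 μM, and that of the adrenergic genes 10.6 to 10.8 and 10.6 to 10.7. SOX10, a Schwann cell gene, lay near the filter at 5.44 to 5.59. None of the members of these lists passed the test between the doses. In a bulk sample a smaller share of a cell type and less RNA in each cell cannot be told apart.

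Between 1 and 5 μM, 365 probe sets were higher at the higher dose, 1.46% of those tested, and 30 were lower, 0.120%, at an adjusted p under 0.10 in limma with a block for the replicate number. The probe sets that rose stood for 293 genes, 2.45% of the genes measured, and those that fell for 23, 0.193%, and 0 genes were called in both directions. The increases had a median of 0.39 and ran from 0.23 to 1.27, with 90 of at least 0.5, while the decreases had a median of -0.29 and the largest was -0.48. All 395 moved in the same direction in the 3 pairs. This and the separation of arrays given next come from the values that made the calls, so the calls favour both. The 3 arrays of one dose did not overlap those of the other in 300 of the 365 and 21 of the 30, beside 6.22% and 7.05% of all probe sets tested that were separated upward and downward. The smallest adjusted p was 0.0544, shared by 11 probe sets, so 0 passed 0.05 after adjustment in limma while 4580 had an unadjusted p under 0.05, 2466 higher and 2114 lower. Of the 365, 5 had untreated and 1 μM means below the signal filter and were kept only through the 5 μM arrays, where they are high. They were the called probe sets of SMARCA2, CTDSPL2, ZNF480, SEPTIN11 and CHRM3. Of the 30, 5 had a 5 μM mean below the filter. Among them, those of NRG1 and ARAP2 also had a mean over the 6 tested arrays below it and were kept through the untreated arrays. These counts rested on the pairing and on each of the 3 pairs, the first most. Without the replicate block 0 probe sets passed (1805 at an unadjusted p under 0.05). On all 9 arrays 0 passed with the block (3206) and without it (1556), and without the first pair 0 passed (3351). Leaving out the second pair gave 109 higher and 1 lower, of which 82 and 1 were among the 365 and the 30. Leaving out the third gave 128 and 11, of which 89 and 3 were among them. Lowering the signal filter to log2(20) left 0 calls (4944), raising it to log2(80) gave 605 higher and 180 lower, and an intensity trend in the variance gave 1334 higher and 811 lower.

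**Figure D1:**
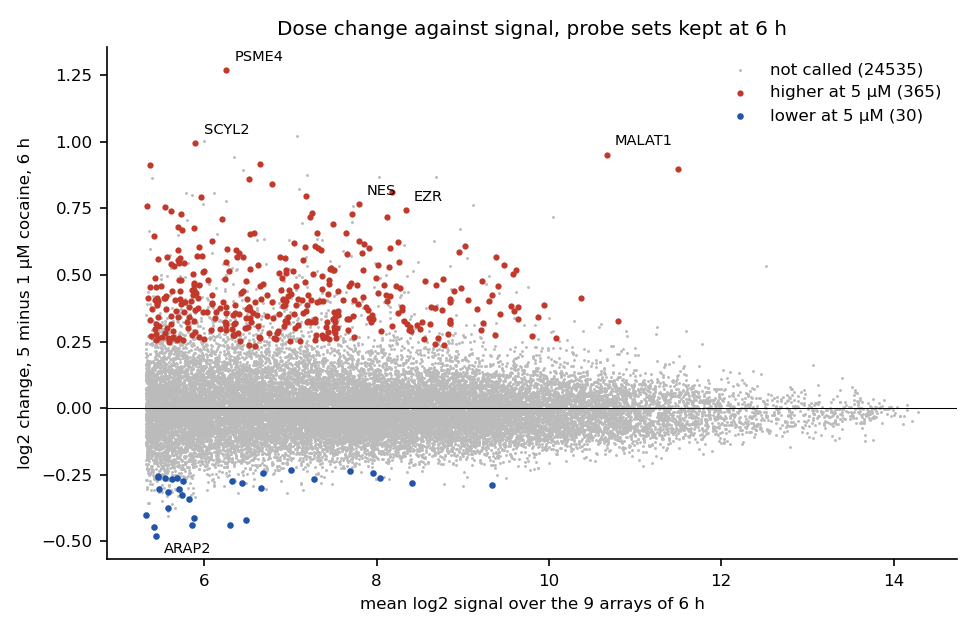
Each point is a probe set kept at 6 h, with its mean log2 signal over the 9 arrays of 6 h on the x axis and its log2 change, 5 minus 1 μM, on the y axis. The 365 probe sets called higher reach 1.27 and lie mostly at low and middle signal, and the 30 called lower lie between -0.23 and -0.48.

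The largest increase was that of PSME4, which encodes PA200, an activator of the proteasome. Its probe set 212220_at measured 5.40, 6.06 and 5.48 at 1 μM and 6.90, 6.79 and 7.05 at 5 μM. The groups did not overlap, and the lowest array at 5 μM exceeded the highest at 1 μM. The change was 1.27 ± 0.17 (SE, n = 3 pairs, limma adjusted p = 0.0785). The untreated arrays of 6 h, which were not in the test, measured 6.42, 6.28 and 5.94 and lay below every array of 5 μM.

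SCYL2 encodes a kinase-like protein that binds clathrin. Its probe set 221220_s_at measured 5.85, 5.88 and 5.13 at 1 μM and 6.82, 6.55 and 6.46 at 5 μM, without overlap, a change of 0.99 ± 0.12 (SE, n = 3 pairs, limma adjusted p = 0.0769). Replicate 3 was the lowest array at both doses. ZFR encodes a zinc finger protein that binds RNA, and its probe set 33148_at measured 6.63, 6.60 and 5.71 at 1 μM and 7.53, 7.38 and 6.77 at 5 μM. The change of 0.92 ± 0.063 (SE, n = 3 pairs, limma adjusted p = 0.0544) was made of 0.90, 0.78 and 1.06 in the 3 pairs, with replicate 3 again lowest at both doses.

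SMARCA2, the BRM ATPase of the SWI/SNF chromatin remodelling complex, measured 5.00, 5.34 and 4.55 at 1 μM and 5.96, 6.12 and 5.55 at 5 μM on probe set 212257_s_at. Its change was 0.91 ± 0.057 (SE, n = 3 pairs, limma adjusted p = 0.0544). Its mean was 5.26 in untreated cells and 4.96 at 1 μM, both below the filter of 5.32, so that it was kept only through its 5.88 at 5 μM. DHX9, RNA helicase A, rose on both of its dimmer probe sets. Probe set 212105_s_at measured 6.76, 6.57 and 5.74 at 1 μM and 7.48, 7.16 and 7.01 at 5 μM, a change of 0.86, and 212107_s_at rose by 0.81. In all of these the arrays of 5 μM stood above those of 1 μM without overlap.

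MALAT1, a long noncoding RNA kept in the nucleus and found at splicing speckles, has 12 probe sets among those kept, and 5 of them rose. Probe set 224568_x_at measured 10.6, 10.8 and 9.99 at 1 μM and 11.3, 11.5 and 11.4 at 5 μM. The spread at 1 μM was wide and that at 5 μM narrow, and the groups did not overlap. Its change was 0.95 ± 0.15 (SE, n = 3 pairs, limma adjusted p = 0.0910). The other 4 that rose were 223940_x_at by 0.90, 227510_x_at by 0.79, 223578_x_at by 0.73 and 231735_s_at by 0.43. The brightest, 224567_x_at, had a mean of 13.1 and a change of 0.16 (adjusted p = 0.420), and 224558_s_at and 226675_s_at had changes of -0.055 and 0.032. Probe set 224559_at had a change of 0.87 that came mainly from replicate 1, where it measured 8.40 at 1 μM and 10.4 at 5 μM (adjusted p = 0.269). The ending _x_at marks probe sets of which some probes also match other sequences, and _s_at those that match several transcripts.

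**Figure D2:**
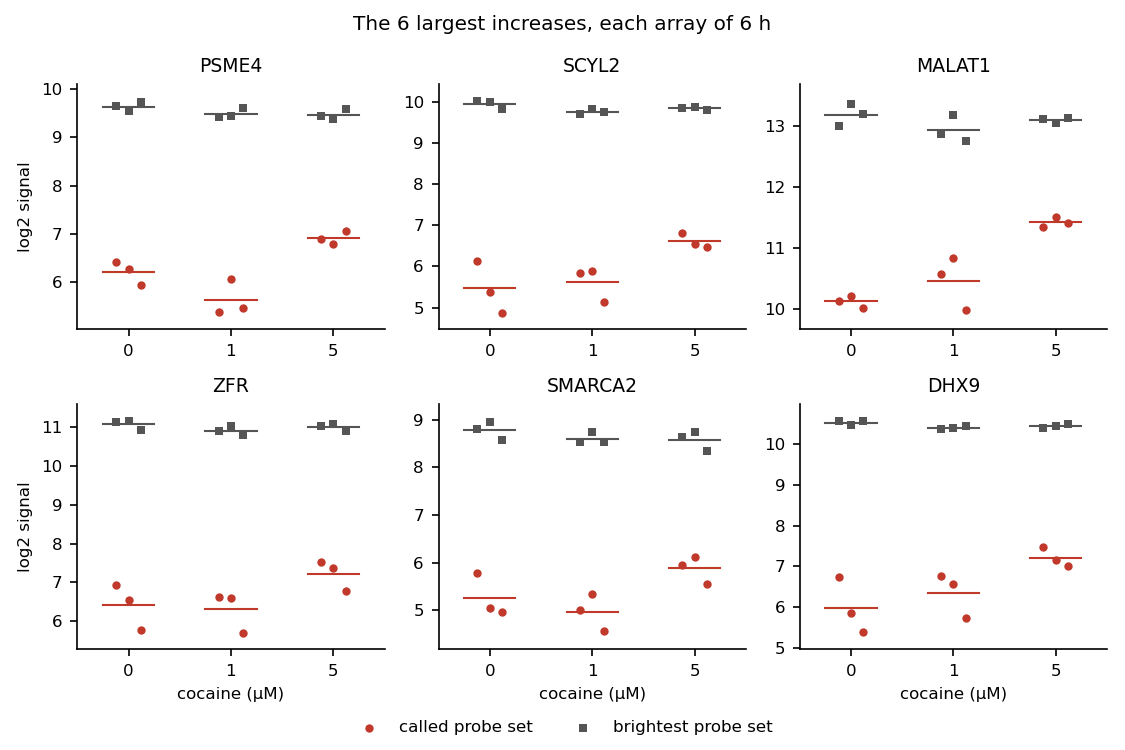
Log2 signal (y axis) on each of the 9 arrays of 6 h by cocaine dose in μM (x axis) for the 6 genes with the largest increases between 1 and 5 μM, with round points for the probe set called, square points for the brightest probe set of the same gene and lines for the means of 3 arrays. The called probe sets stand higher at 5 μM than at 1 μM, for PSME4 by 1.27, while the brightest one changed by -0.026 in PSME4 and 0.045 in DHX9.

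The remaining genes with the largest increases were MAP3K1, a kinase upstream of JNK and ERK, by 0.84, ATP13A3, a P5-type ATPase, by 0.80, NES (nestin), an intermediate filament of neural progenitors, by 0.77, CTDSPL2, a phosphatase, by 0.76, TAOK1, a kinase that acts on microtubules and stress signalling, by 0.75, and EZR (ezrin), which ties actin to the membrane, by 0.74. Their adjusted p ran from 0.0544 to 0.0992 and none overlapped between the doses. CTDSPL2, with means of 5.13 untreated and 5.06 at 1 μM, was kept only through its 5.82 at 5 μM. TAOK1 had a narrow group at 5 μM, 5.98, 5.97 and 5.98, against 5.11, 5.41 and 5.15 at 1 μM. EZR measured 8.06, 8.05 and 7.86 at 1 μM and 8.97, 8.57 and 8.65 at 5 μM.

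The promoters of the 3 genes with the largest increases are shown as examples, because CREB, the factor of cAMP signalling, binds a known run of letters. The 3 genes were picked for their increase, and a shared control of them was not tested. They are RefSeq windows of GRCh38.p14, 250 bases before to 50 after an annotated start, and capitals mark the CRE (TGACGTCA, bound by CREB), the ETS motif (CCGGAAG) and the GC box (GGGCGG), on either strand. PSME4 lies at chr2:53970944-53971243 on the minus strand, SCYL2 at chr12:100266927-100267226 on the plus strand and MALAT1 at chr11:65497488-65497787 on the plus strand, the first of its 2 windows.
PSME4: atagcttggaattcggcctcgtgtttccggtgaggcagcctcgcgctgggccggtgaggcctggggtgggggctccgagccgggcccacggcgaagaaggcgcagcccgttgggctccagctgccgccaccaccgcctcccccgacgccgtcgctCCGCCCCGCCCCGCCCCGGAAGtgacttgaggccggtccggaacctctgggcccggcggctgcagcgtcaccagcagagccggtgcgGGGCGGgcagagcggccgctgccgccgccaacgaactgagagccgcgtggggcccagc
SCYL2: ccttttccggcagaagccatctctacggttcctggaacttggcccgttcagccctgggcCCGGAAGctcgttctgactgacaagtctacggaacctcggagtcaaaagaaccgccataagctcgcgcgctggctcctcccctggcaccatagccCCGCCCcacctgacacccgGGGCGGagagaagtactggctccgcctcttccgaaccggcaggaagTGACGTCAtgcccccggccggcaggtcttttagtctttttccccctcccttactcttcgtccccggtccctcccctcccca
MALAT1: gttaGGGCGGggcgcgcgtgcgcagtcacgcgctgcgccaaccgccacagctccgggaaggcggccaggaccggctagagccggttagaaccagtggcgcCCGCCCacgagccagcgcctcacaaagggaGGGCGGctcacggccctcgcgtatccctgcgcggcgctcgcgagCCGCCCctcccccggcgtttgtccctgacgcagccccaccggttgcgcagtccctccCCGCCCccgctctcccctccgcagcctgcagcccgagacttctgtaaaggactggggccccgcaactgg

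The SCYL2 window held 1 CRE, 1 ETS motif and 2 GC boxes, that of PSME4 1 ETS motif and 4 GC boxes, and that of MALAT1 5 GC boxes. Windows were found for 256 of the 293 genes with an increase, 405 windows in all. Of these 1.98% held the CRE, against 2.86% of the 14386 windows of the genes measured and 1.85% of all 35116 windows in the table. The GC box was in 63.7%, 66.1% and 45.0%, and the ETS motif in 12.6%, 16.9% and 10.3%. The CCAAT box (CCAAT) was in 36.3%, 34.8% and 34.6%, and the TATA box (TATAAA) in 8.64%, 6.09% and 11.5%. The differences between these shares were not tested. A match is a run of letters and not a bound site.

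The decreases were smaller. ARAP2, a GTPase-activating protein for Arf proteins, had the largest. Its probe set 242402_x_at measured 5.39, 5.67 and 5.60 at 1 μM and 4.99, 5.20 and 5.04 at 5 μM, a change of -0.48 ± 0.048 (SE, n = 3 pairs, limma adjusted p = 0.0698). The groups did not overlap, but at 5 μM the arrays lay below the level of the signal filter, log2(40) or 5.32. TMEM151B measured 5.78, 6.27 and 6.17 at 1 μM and 5.25, 5.78 and 5.88 at 5 μM. Here the groups overlapped and the change of -0.44 (limma adjusted p = 0.0822) was seen within pairs. HMCN2, an extracellular matrix protein, likewise overlapped, with 7.07, 6.48 and 6.44 against 6.56, 6.25 and 5.91.

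NRG1, neuregulin 1, a ligand of ErbB receptors, fell on 1 of its 2 probe sets. Probe set 208232_x_at measured 5.34, 5.43 and 5.34 at 1 μM and 4.85, 5.17 and 4.90 at 5 μM, a change of -0.40 ± 0.059 (SE, n = 3 pairs, limma adjusted p = 0.0878). The untreated arrays were higher still, at 5.59, 5.62 and 5.72, so the doses stood in descending order, of which only the step from 1 to 5 μM was tested. The mean of the 6 tested arrays was 5.17 and every array of 5 μM lay below the filter of 5.32, so that the probe set was kept through the untreated arrays. The brighter probe set, 206343_s_at, changed by -0.016 (adjusted p = 0.897).

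MAPK15, an atypical MAP kinase, measured 5.63, 5.63 and 5.90 at 1 μM and 5.33, 5.34 and 5.38 at 5 μM and fell by 0.38. B3GALT4, which makes gangliosides, fell by 0.34 and NFAM1, a receptor of immune cells, by 0.33. MTHFD1, an enzyme of folate metabolism, fell by 0.32 on a probe set with a mean of 5.58 beside 10.3 for its brightest. CCDC159 fell by 0.30, to a mean of 5.317 at 5 μM, below the filter of 5.32. PCIF1, which methylates the mRNA cap, fell by 0.30, RASL10B, a small GTPase, by 0.30, and AP1S1, a clathrin adaptor subunit, by 0.29. Of these 8, MTHFD1, PCIF1 and AP1S1 overlapped between the doses.

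**Figure D3:**
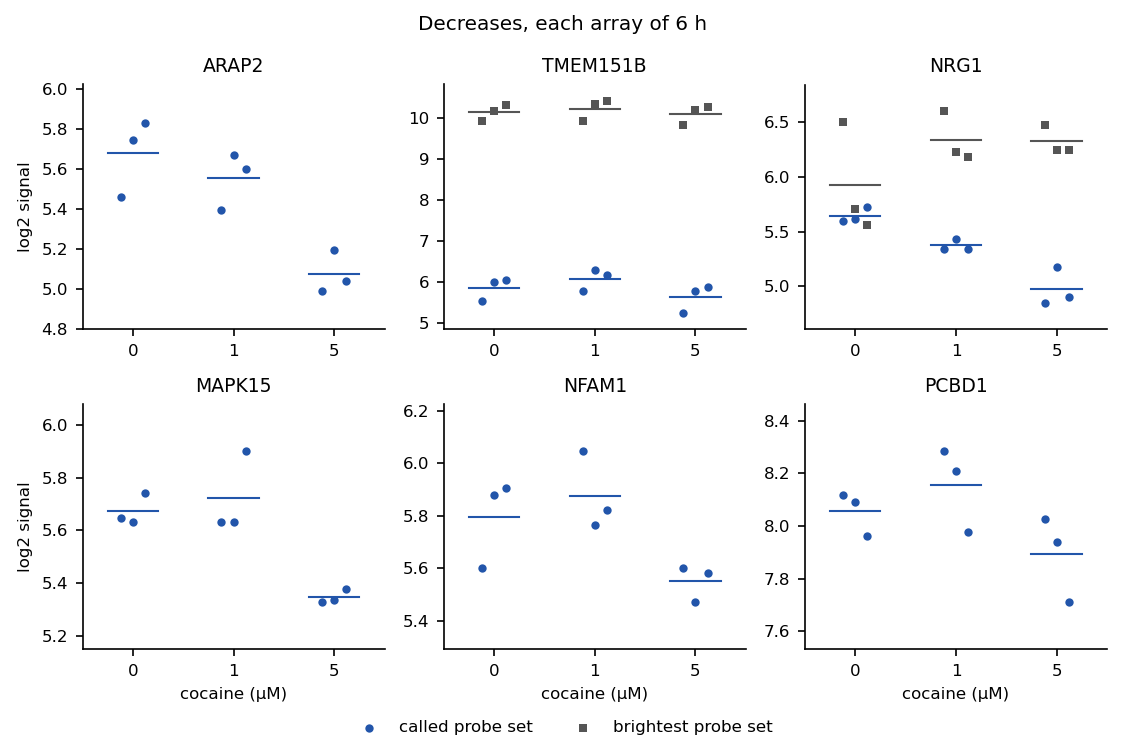
Log2 signal (y axis) on each of the 9 arrays of 6 h by cocaine dose in μM (x axis) for 6 genes with a decrease between 1 and 5 μM, with round points for the probe set called, square points for the brightest probe set where that is another one, and lines for the means of 3 arrays. The y axes differ between panels and do not start at 0. ARAP2, NRG1, MAPK15 and NFAM1 do not overlap between 1 and 5 μM, while TMEM151B and PCBD1 do.

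The increases lay mostly in the dimmer probe sets of their genes. Of the 316 probe sets with 1 symbol that rose, 302 belonged to genes with several probe sets, and 12 of these, 3.97%, were the brightest of their gene, against 37.5% of the 15186 such probe sets tested. Of the dimmest probe sets of such genes 3.39% were called higher, and of the brightest 0.211%. The brightest and the called probe set were a median of 2.75 apart in mean signal. In the 267 genes whose brightest probe set did not pass, that probe set had a median change of 0.037, 71 of them were below 0 and 7 above 0.2. Over all genes with several probe sets the brightest had a median of -0.0087. Of all genes measured, 39.8% were above 0 by their brightest probe set, so those of the 267 stood slightly higher. In the genes with the 12 largest increases, the brightest one changed by -0.14 to 0.34, and 11 of 12 by less than 0.2 in size. PSME4 had changes of -0.026 and 0.044 on its brighter probe sets, and SCYL2 0.088 and 0.091. The 4 other probe sets of SMARCA2 had -0.034 to 0.082. ZFR differed in that 3 of its 4 were high, with 1.02 on 213286_at (adjusted p = 0.112) and 0.47 on 201856_s_at (adjusted p = 0.0961), against 0.087 on the brightest.

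By the brightest probe set of each gene, 26 of 11943 genes were higher, 0.218%, and 15 lower, 0.126%. Of these, 14 of the 26 and all of the 15 had a single probe set kept, so no dimmer one could be compared. Of the 8 called decreases in genes with several probe sets, 0 were on the brightest. The 26 were ZNF480 by 0.65, LINC00622 by 0.61, ZNF800 by 0.58 and 23 more, among them SMAD4, the common mediator of TGF-beta and BMP signals, by 0.34, ATP2B1, a calcium pump of the plasma membrane, by 0.28, and IL15, a cytokine, by 0.30. These were picked here after their values were seen. When only the brightest probe sets were tested, 1 gene passed, ZNF480, a zinc finger gene, with a change of 0.65 (adjusted p = 0.0990). Its means were 5.20 both in untreated cells and at 1 μM, below the filter, and 5.85 at 5 μM.

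The called probe sets also shared features of signal, design and gene length. With the probe sets cut into 4 equal bins by mean signal, 2.20% were called higher in the lowest bin and 2.17% in the next, and 1.09% and 0.401% in the upper bins. Of those called higher 42.5% carried the _s_at ending against 29.5% of all tested, and 5.48% carried _a_at, which marks probes for several transcripts of 1 gene, against 1.87%. The ending _x_at was no more common, at 9.59% against 9.77%. The genes with an increase spanned a median of 71.5 kb of genome against 29.6 kb for all genes measured and 21.9 kb for the 23 with a decrease. Among genes with several probe sets the medians were 74.0 kb and 39.6 kb.

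RNA quality controls did not overlap between the doses. The control probe sets of ACTB (beta-actin) at the 3′ and 5′ ends of the transcript differed by 0.72, 0.64 and 0.60 at 1 μM and by 0.49, 0.52 and 0.54 at 5 μM, a difference between doses of -0.14 without overlap (2-sided exact permutation p = 0.1, which is the lowest that 3 against 3 arrays can give). For GAPDH the same measure was 0.15 to 0.17 at 1 μM and 0.19 to 0.24 at 5 μM, also without overlap and in the opposite direction (exact p = 0.1). In 5408 genes with several probe sets of which none was called, the dimmer ones relative to the brightest stood 0.026 higher at 5 μM than at 1 μM, and the 3 arrays of each dose did not overlap. The spike-in control bioB, added to the labelled sample and read relative to cre, overlapped between the doses (exact p = 0.5), and so did the median signal (exact p = 0.9). The part of RNA quality in the increases was not tested.

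**Figure D4:**
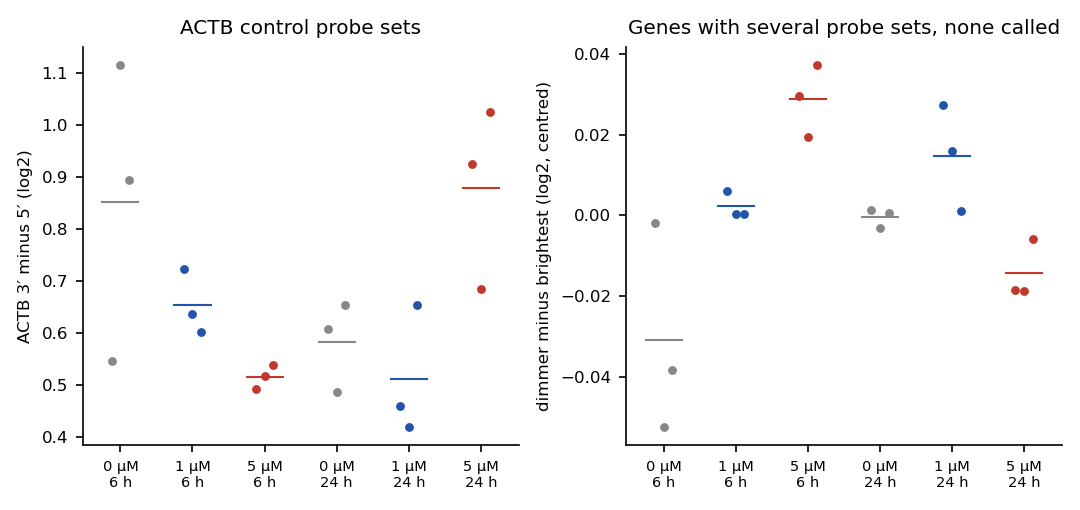
The left panel gives the log2 difference between the 3′ and 5′ ACTB control probe sets (y axis) for each array by dose and time (x axis), and the right panel the mean log2 signal of dimmer probe sets relative to the brightest one in 5408 genes without a call, centred on each time. Lines are means of 3 arrays. At 6 h the 5 μM arrays lie below those of 1 μM in the left panel, by 0.14, and above them in the right panel, by 0.026, and at 24 h both orders are turned.

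Gene lists were described by their counts. The 30 lists hold 1188 genes, of which 974 were measured. By the brightest probe set 0 of them were higher in limma and 1 was lower, with 39 higher and 80 lower at an unadjusted p under 0.05, against 540 and 1133 of all genes. By any probe set 40 were higher, 4.11%, and 2 lower, 0.205%, beside the 2.45% and 0.193% of all genes. List members can have more probe sets than other genes, and no list was tested against the rest.

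Of genes downstream of neuronal activity, the immediate early genes had no calls and other lists had some. Of 21 immediate early genes measured, 0 passed by any probe set, with 2 higher and 4 lower at an unadjusted p under 0.05, and the median change of their brightest probe sets was 0.0048. Of 41 genes of CREB and cAMP signalling 3 rose by a dimmer probe set, 7.32% beside the 2.45% of all genes, and the median was -0.0019. CREB1, the transcription factor itself, rose by 0.31 on 214513_s_at, the dimmest of its 7 probe sets, with 6.66, 6.94 and 6.82 at 1 μM and 6.93, 7.30 and 7.12 at 5 μM, which overlap. The brightest, 225572_at, changed by -0.027. PRKACB, a catalytic subunit of protein kinase A, rose by 0.41, and PDE4B, which breaks down cAMP, by 0.31, both with overlapping groups. Of 22 ERK feedback genes, ETV1, an ETS transcription factor, rose by 0.34, which made 4.55% of that list.

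Of 36 genes of neurotrophin and RET signalling 3 rose, 8.33% beside the 2.45% of all genes, each on a dimmer probe set. PTPN11, the phosphatase SHP2, measured 8.71, 8.73 and 8.59 at 1 μM and 9.07, 9.09 and 9.05 at 5 μM, a change of 0.40 with narrow, separate groups. SOS2, an exchange factor for Ras, rose by 0.39 and RAPGEF2, one for Rap, by 0.42. Of 22 neuregulin and ErbB genes 1 rose, 4.55%, namely ADAM10, a protease that sheds membrane proteins, by 0.39 with overlapping groups. NRG1 fell, as above.

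Among genes of neuronal function, 1 of 18 of catecholamine metabolism passed, a decrease, beside 0.193% of all genes called lower. PCBD1, which recycles the tetrahydrobiopterin cofactor of tyrosine hydroxylase and has a single probe set here, measured 8.28, 8.21 and 7.98 at 1 μM and 8.03, 7.94 and 7.71 at 5 μM, and fell by 0.26 (limma adjusted p = 0.0910). The groups overlapped, and the pairs had changes of -0.26, -0.27 and -0.27. Of 20 ion channel genes SCN2A, a sodium channel, rose by 0.34 with overlapping groups, which made 5% of that list beside the 2.45% of all genes. Of 51 genes of vesicle exocytosis 2 rose, 3.92%. SCAMP1, a carrier protein of secretory membranes, rose by 0.63, from 7.41, 7.86 and 7.58 to 8.31, 8.32 and 8.11. STX16, a syntaxin of the Golgi, rose by 0.37. Of 56 genes of axon guidance and neurite growth 2 rose, 3.57%. They were PLXNA2, a semaphorin receptor, by 0.43 with overlapping groups and UNC5C, a netrin receptor, by 0.34 without overlap.

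Regulators of actin had 5 of 54 genes called, 9.26% beside the 2.45% of all genes called higher. TWF1 (twinfilin), which binds actin monomers, measured 5.51, 5.57 and 5.32 at 1 μM and 6.28, 6.19 and 6.11 at 5 μM and rose by 0.73 (limma adjusted p = 0.0544). EZR, ABLIM1 by 0.34, TPM4 (a tropomyosin) by 0.38 and MYO6 (a myosin) by 0.32 were the others, and the list had a median of 0.014 by brightest probe sets. Splicing factors had 5 of 76 called, 6.58%, with a median of 8.3e-04. They were DHX9, DDX17 by 0.41, HNRNPU by 0.40, RBM39 by 0.39 and SFSWAP by 0.35. Chromatin genes had 5 of 91, 5.49%, with a median of 0.0012. They were SMARCA2, DNMT3A (a DNA methyltransferase) by 0.54 and KDM5A (a demethylase) by 0.44. The others were KMT2A by 0.50 and KMT2C by 0.48, both histone H3 lysine methyltransferases. Nuclear-retained RNAs had 2 of 14, 14.3%, namely MALAT1 and TUG1 by 0.26. By brightest probe sets, however, 4 of 14 were above 0 and the median was -0.094.

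Among stress lists, ER chaperones had 3 of 33 called, 9.09% beside the 2.45% of all genes, namely CANX (calnexin) by 0.45, EDEM3 by 0.42 and HSP90B1 by 0.31, and heat shock proteins 2 of 28, 7.14%, namely HSPA4 by 0.43 and HSPH1 by 0.39. EPRS1, a tRNA synthetase, rose by 0.52 in the ATF4 list of 37, 2.70%, and ZMAT3 by 0.40 among 21 p53 targets, 4.76%. Of 55 genes of G1/S and DNA replication CCNE2 (cyclin E2) rose by 0.57, which made 1.82% of that list. Of 51 genes of G2/M and mitosis ECT2 rose by 0.48 and ANLN by 0.33, the latter with overlapping groups, which made 3.92%. Cohesin and SMC genes had 0 of 22 called, beside the 2.45% of all genes, and a median of 0.055. By any probe set 11 were higher at an unadjusted p under 0.05 and 0 lower. These 22 genes have 50 probe sets, and 2466 of all 24930 probe sets tested were higher at that p.

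Lists of housekeeping genes had 0 calls in limma and medians below 0. The nuclear-encoded respiratory chain had a median of -0.064, 5 of 64 genes above 0 beside 39.8% of all genes, and 15 lower and 0 higher at an unadjusted p under 0.05. The 7 mitochondrially encoded transcripts had a median of -0.099 and none above 0, glycolysis and hypoxia -0.033, cytosolic ribosomal proteins -0.021 and sterol synthesis -0.023. The median of all genes by their brightest probe sets was -0.020.

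No gene of the retinoic acid response passed between the doses, while the untreated arrays differed among themselves. CYP26A1, which degrades retinoic acid, measured 5.15, 4.95 and 5.61 at 1 μM and 5.20, 5.39 and 5.53 at 5 μM, and its change was 0.14 (limma adjusted p = 0.493). In untreated arrays it measured 5.01, 10.7 and 11.0, so that the first stood with the treated arrays and the other two far above them. CYP26B1 changed by -0.0045, DHRS3 by -0.067 and RARB by 0.11 on its brightest probe set, and 0 of 18 genes of this list passed by any probe set (1 higher and 2 lower at an unadjusted p under 0.05). HPRT1, a housekeeping gene, changed by -0.032, and the 3 probe sets of GAPDH by -0.042 to -0.061.

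The study followed up 7 genes, of which 3 passed here on 1 probe set each, that of NRG1 kept through the untreated arrays. NFAT5, a transcription factor of the osmotic stress response, rose on 208003_s_at, from 7.04, 7.11 and 6.94 at 1 μM to 7.41, 7.51 and 7.40 at 5 μM, a change of 0.41 ± 0.043 (SE, n = 3 pairs, limma adjusted p = 0.0698). Its untreated arrays measured 6.58, 6.65 and 7.18. The brightest probe set, 224984_at, changed by 0.013, and 215092_s_at by 0.80 with an adjusted p of 0.206, since replicate 3 at 1 μM was low at 4.67. IGF2BP3, which binds mRNA, rose by 0.40 on 216493_s_at, from 7.46, 7.36 and 7.25 to 7.95, 7.76 and 7.57 (limma adjusted p = 0.0769), and its brighter probe sets changed by -0.0090 and 0.040. NRG1 fell, as above.

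The other 4 did not pass between these doses. ENC1, an actin-binding protein of neurons, changed by 0.27 on 201340_s_at (adjusted p = 0.141), with overlapping groups, and by -0.024 on its brightest. ELF1, an ETS factor, changed by 0.093, and PPP1R9A (neurabin), which ties protein phosphatase 1 to actin, by 0.13 to 0.16 on 3 probe sets. SEMA6D, a semaphorin, changed by -0.11 on its brightest probe set and by 0.49 and 0.27 on the dimmer ones.

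Against untreated cells, the 365 increases had a median of -0.060 from 0 to 1 μM and of 0.34 from 0 to 5 μM. At 1 μM 225 of them were below the untreated mean, beside 12825 of all 24930 probe sets. At 5 μM 351 were above that mean, beside 11477. Their choice by a high 5 minus 1 μM difference favours both counts. For the 30 decreases these medians were 0.11 and -0.20. Both comparisons share arrays with the dose step, and 2 of the 3 untreated arrays had the high CYP26A1 given above, so the values are set side by side only. All 3 untreated arrays also differed from the treated ones of 6 h in the spike-in control bioD relative to cre. It was -1.18 to -1.11 in untreated arrays and -1.72 to -1.62 at 1 and 5 μM. PSME4, MAP3K1 and ATP13A3 were lower at 1 μM than in untreated cells, by -0.57, -0.42 and -0.51, and higher at 5 μM, by 0.70, 0.43 and 0.28. MALAT1 and DHX9 stood in the order of dose, with 0.34 and 0.36 from 0 to 1 μM and 1.29 and 1.22 from 0 to 5 μM, on the probe sets with their largest change. The other called probe set of DHX9, 212107_s_at, did not, with -0.028 from 0 to 1 μM and 0.78 from 0 to 5 μM.

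At 24 h the same step in dose gave 0 calls among 27304 probe sets in limma, 0.00% in either direction, with 1160 higher and 2124 lower at an unadjusted p under 0.05. Those arrays are separate from the ones at 6 h. Of the 365 probe sets that rose at 6 h, 294 were below 0 at 24 h, 80.5% beside 57.4% of the 24805 kept at both times, and their median change was -0.15 beside -0.017. Of the 30 that fell, 18 were above 0, 60% beside 42.6% of all. Over all 24805 probe sets the 2 changes had Pearson's r = -0.22 and a Spearman rank correlation of -0.18, given as a description across probe sets of the same design, which are not independent. SCAMP1 had a change of -0.77 at 24 h, CTDSPL2 of -0.56, CCNE2 of -0.55, TWF1 of -0.54 and MALAT1 of -0.41 on 224568_x_at, while PSME4 had 0.10 and SCYL2 0.20.

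The difference between the times was tested on the 12 arrays of both doses. The change was greater at 6 h in 912 probe sets, 3.66%, and smaller in 299, 1.20%, at an adjusted p under 0.10 in limma with the block. Without the block these counts were 36 and 1, and leaving out any 1 of the pairs left 0 (3125 to 3942 at an unadjusted p under 0.05). Of the 365 increases 235 were in the first group, which their choice by the change at 6 h favours. Of the quality measures, the ACTB difference and the level of the dimmer probe sets turned and that of GAPDH did not. The ACTB difference was 0.42 to 0.66 at 1 μM and 0.69 to 1.03 at 5 μM at 24 h, higher at the higher dose by 0.37, and the dimmer probe sets relative to the brightest stood 0.029 lower. The GAPDH measure was 0.14 to 0.19 at 1 μM and 0.18 to 0.22 at 5 μM at 24 h, with overlap (exact permutation p = 0.2), a difference between doses of 0.039 beside 0.044 at 6 h. The part of RNA quality in the turn between the times was not tested.

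**Figure D5:**
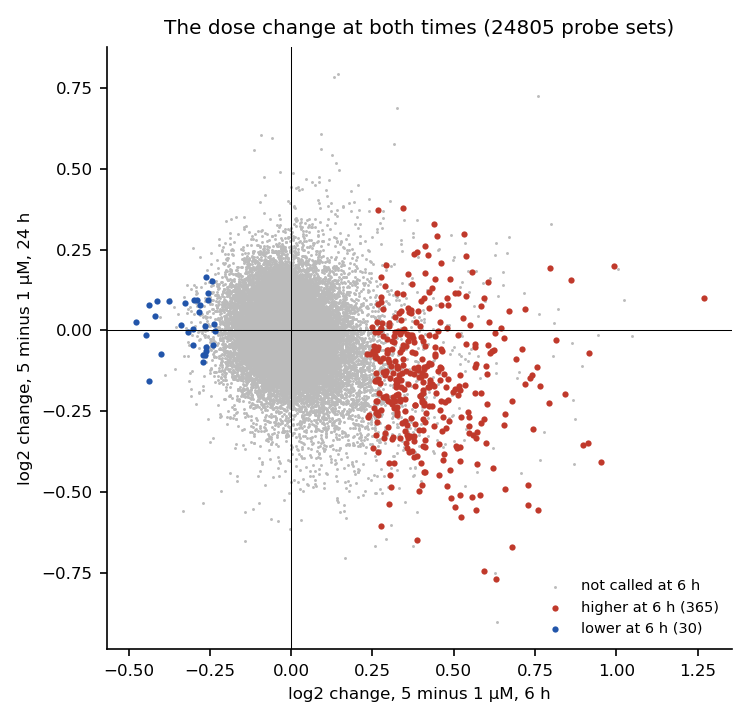
The log2 change from 1 to 5 μM at 6 h (x axis) against that at 24 h (y axis) for 24805 probe sets kept at both times, with those called at 6 h in colour. Of the 365 called higher at 6 h, 294 lie below 0 at 24 h, with a median of -0.15.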

How the data were processed

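The authors deposited log2 signals for all probe sets of an Affymetrix U133 Plus array, which they had made with RMA (background correction, normalization, median polish), each time of harvest on its own. RMA and limma are named in the submitters' processing notes without versions. Genes were named by the platform annotation, updated by gene ID from RefSeq, which held 21425 of the 21434 probe sets with 1 symbol, and 62 control probe sets were left out.

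The 5 and 1 μM arrays of 6 h were compared with limma 3.58.1 in R 4.3.3 (lmFit and eBayes), with the replicate number as a block, Benjamini-Hochberg adjustment over the 24930 probe sets kept and a threshold of 0.10. The pairing by number was part of the definition of the comparison. Same-numbered arrays shared their deviations from the dose means, with correlations from 0.54 to 0.76 (6 h) and from 0.38 to 0.72 (24 h). Arrays with different numbers had at most 0.016 and 0.19. Deviations from a dose mean sum to 0, so positive correlations at the same number force lower ones elsewhere, and this contrast is no separate support. The study's methods state a limma comparison of 3 doses at this threshold and no block, which was run as an alternative. At 24 h 27304 probe sets were kept. Quality measures were compared with exact permutation tests, 2-sided. The number of arrays limits the precision. With the block, the limma p-values measure the spread of the changes between pairs of pools, and not the spread between pools of 1 dose. The exact permutation tests ignore the pairs and compare pools of dishes. Simulated data with known changes were used to test the fit.

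The members and gene lists were chosen with earlier results of these data known. Named genes are the 12 largest increases and decreases with 1 symbol and 1 sign in the 3 pairs. Added to these were up to 3 members a list and direction with the smallest p. The 7 genes that the study followed up and its text names as changed, and 8 reference genes, complete them. Others were picked after their values were seen, namely TPM4, MYO6, HNRNPU, RBM39, DNMT3A, KMT2A, SEPTIN11, CHRM3, the genes called by their brightest probe set, and second probe sets. Data were handled with the data.table package (1.17.8) and pandas 2.3.3, with figures from matplotlib 3.10.9 (Python 3.11.15). The alternatives were the block, the arrays in the fit, the signal filter, the scaling, the variance model, array weights, the threshold, 1 probe set per gene and each pair left out. A random effect for the replicate was added after the data were seen.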

Additional observations from a re-analysis of the deposited data

Results flagged for a closer look

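The change from 1 to 5 μM differed between 6 and 24 h in a test of the difference itself (limma, 12 arrays, adjusted p under 0.10), greater at 6 h in 912 probe sets and smaller in 299. The values that follow are the change at 6 h minus that at 24 h on the log2 scale, for the named probe sets that passed. For MALAT1 they were 1.36, 1.25, 1.21, 1.02, 0.87 and 0.67 on 6 probe sets. They were above 0.8 for SCAMP1 (1.40), CTDSPL2 (1.32), TWF1 (1.27), SMARCA2 (1.26), CCNE2 (1.12), EZR (1.05), MAP3K1 (1.04), ZFR (0.98), ZMAT3 (0.88), TAOK1 (0.87) and DHX9 (0.84). They were below 0.8 for CREB1 (0.79), HSPH1 (0.77), STX16 (0.74), EPRS1 (0.70), ADAM10 (0.70), HSP90B1 (0.64), PRKACB (0.64), ECT2 (0.63), SFSWAP (0.63), PTPN11 (0.60), RAPGEF2 (0.60), IGF2BP3 (0.59), ANLN (0.59), CANX (0.58), DDX17 (0.55), HSPA4 (0.53), EDEM3 (0.53), SOS2 (0.51), ETV1 (0.40) and TUG1 (0.35). The change was smaller at 6 h for MAPK15 (-0.47), HMCN2 (-0.46), PCBD1 (-0.43), NFAM1 (-0.41), RASL10B (-0.39), B3GALT4 (-0.35) and PCIF1 (-0.26). Without any 1 pair no difference passed.

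The ACTB 3′ minus 5′ difference was lower at 5 μM than at 1 μM in each pair at 6 h and higher in each pair at 24 h, and its change at 6 h minus that at 24 h was -0.51. The signal of dimmer probe sets relative to the brightest one of their gene moved in the opposite direction at both times, with a difference of 0.056. Neither difference was tested.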

How the results depend on the processing

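Of 365 probe sets higher and 30 lower between 1 and 5 μM at 6 h, the counts stayed within 1.5 times with a gene symbol required (361 and 37), arrays centred on their medians (370 and 34) and, for increases, quantile normalization again (361, with 54 lower), array weights (381, with 49 lower) and robust eBayes (248, with 15 lower). All 248 and 15 were among the main calls. The counts were 0 and 0 with no replicate block on the 6 arrays, on 9 arrays with and without the block, with the filter at log2(20), with no filter (5872 at an unadjusted p under 0.05) and at an adjusted p under 0.05, and 1 and 0 with 1 probe set per gene. They were 605 and 180 with the filter at log2(80), 1334 and 811 with an intensity trend, which held 360 and 25 of the main calls, and 634 and 226 with the replicate number as a random effect, which held 325 and 23. Leaving out a pair gave 0 to 128 higher and 0 to 11 lower, and at most 89 and 3 of these were among the main calls. The smallest adjusted p over these settings ran from 0.0013 to 0.34. At 24 h the counts stayed at 0 without the block (smallest adjusted p 0.469) and without each pair. The 912 greater and 299 smaller changes at 6 h than at 24 h became 36 and 1 with no replicate block and 0 without any 1 pair. List members by any probe set in place of the brightest were 40 higher, not 0, and 2 lower, not 1. Of 62 named probe sets that passed, 62 kept their call with arrays centred on their medians and with an intensity trend. Without the first pair 0 kept it, without the second 24 and without the third 23. None of the named probe sets with a call changed its sign under any alternative run. Each had 1 sign in the 3 pairs, and most alternatives leave the change itself as it was, so this was largely fixed in advance. The cause of these differences was not tested.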
